A study of Mus musculus with 6 samples.

Results

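The death-receptor and necroptosis machinery was followed here through 9 genes chosen by name, Fas, Tradd, Fadd, Ripk1, Casp8, Cflar, Ripk3, Mlkl and Zbp1, among the 54532 genes listed for each sample. Each symbol had 1 entry, and all 9 passed the filter for the test, a mean of at least 1 FPKM (reads scaled to exon length and library total). RNA sequencing had been done on cultured macrophages grown from bone marrow of C57BL/6 mice. The siCXCR4 libraries came from cells given a small interfering RNA against Cxcr4, and the siNC libraries from cells given a negative-control siRNA. Both groups had then been exposed to lipopolysaccharide (LPS, a bacterial cell-wall lipid sensed by TLR4) at 100 ng/ml for 12 hours, so no library shows these genes without LPS or without transfection. The deposited columns of the siCXCR4 group are headed mko, a name that the sources used here do not explain. The labels leave unsaid whether the samples of a group came from separate mice or cultures, so every p-value below is set against sample-to-sample spread that could be purely technical.

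Death receptors such as FAS and the TNF receptor TNFR1 carry a death domain inside the cell. FAS binds the adaptor FADD directly, while TNFR1 first binds TRADD and RIPK1. FADD brings in caspase-8, which starts apoptosis, and c-FLIP, the product of Cflar, which resembles caspase-8 and restrains it. When caspase-8 is blocked, RIPK1 and RIPK3 join through a short shared motif, the RHIM, and RIPK3 phosphorylates MLKL, which breaks the plasma membrane in necroptosis. ZBP1, a sensor of Z-form nucleic acids, and TRIF (the product of Ticam1), the adaptor of TLR3 and TLR4, also carry a RHIM, and both can engage RIPK3. In macrophages, LPS engages this pathway through TRIF and through the TNF and interferon that the cells release.

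The labels name 3 samples per group, but the table given as siNC replicate 3 held the read counts of siNC replicate 2, equal in all 19072 genes with reads, so the pair, closer than sampling noise allows, was counted as 1 sample. This left 3 siCXCR4 and 2 siNC libraries, with 18890751 to 21780840 reads in genes for siCXCR4 and 19292520 and 21443370 for siNC. One library stood apart from its label. A chi-square per gene on reads was taken over genes with at least 20 reads in the pair, where counting error alone gives about 1. By it, siCXCR4 replicate 2 differed by 6.87 and 8.66 from the other siCXCR4 libraries but by only 4.50 and 5.88 from the siNC libraries. siNC replicate 1 in turn lay nearer to siCXCR4 replicate 2 (4.50) than to siNC replicate 2 (5.24). Cxcr4, the siRNA target, was at 31.1, 36.2 and 32.7 FPKM in siCXCR4 libraries against 41.3 and 42.1 FPKM in siNC libraries, a log2 fold change of -0.32 (SE 0.0704) with a limma adjusted p of 0.457. Its value in siCXCR4 replicate 2 was the highest of that group. All 8 macrophage markers looked up were present, with values from 32.8 to 2470 FPKM. Of 29 markers of 7 other cell types, 2 averaged 1 FPKM or more. Both belonged to the neutrophil list, whose summed level was 6.79 to 8.12 FPKM in siCXCR4 and 7.83 to 8.25 FPKM in siNC libraries, and their part in the results was not tested. No other list had a marker averaging 1 FPKM, and Siglech (dendritic cells), Mcpt4 (mast cells) and Hbb-bt (erythroid cells) were among those at 0 in every library. These are bulk samples, in which fewer cells of a type and less RNA per cell cannot be told apart.

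The 9 genes spanned a wide range of levels in these LPS-treated cells. Over the 5 libraries Zbp1 averaged 174 FPKM, Cflar 125 FPKM, Mlkl 97.9 FPKM and Casp8 45.3 FPKM, and the ranges of these 4 genes did not overlap one another. Fas (14.05 FPKM), Tradd (12.2 FPKM) and Ripk1 (12.0 FPKM) followed. The ranges of Fas and Tradd over libraries overlapped, but Fas was higher than Tradd within each library. Tradd and Ripk1 could not be ordered, since their ranges overlapped and neither was higher throughout. Ripk3 (8.79 FPKM) and Fadd (5.51 FPKM) were the lowest. The nucleic-acid sensor, the caspase-8 restrainer and the membrane-breaking effector were thus at the 97.3rd, 96.1st and 95.1st percentiles of the tested genes by mean FPKM, while the kinase RIPK3 that links sensor and effector was at the 57.7th. For 8 of the 9 genes the values divide reads by the summed length of all GENCODE M21 exons, which was 12669 bases for Cflar. Fas differed, with a deposited length of 1801 bases against 2062 bases in M21, so its level rests on a shorter length. Dividing instead by the length of the principal GENCODE transcript (6572 bases for Cflar) left Zbp1, Cflar, Mlkl and Casp8 in the same places and exchanged only Tradd and Ripk1. The values count reads over whole genes, so the long and short forms of c-FLIP were not separated.

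**Figure D1:**
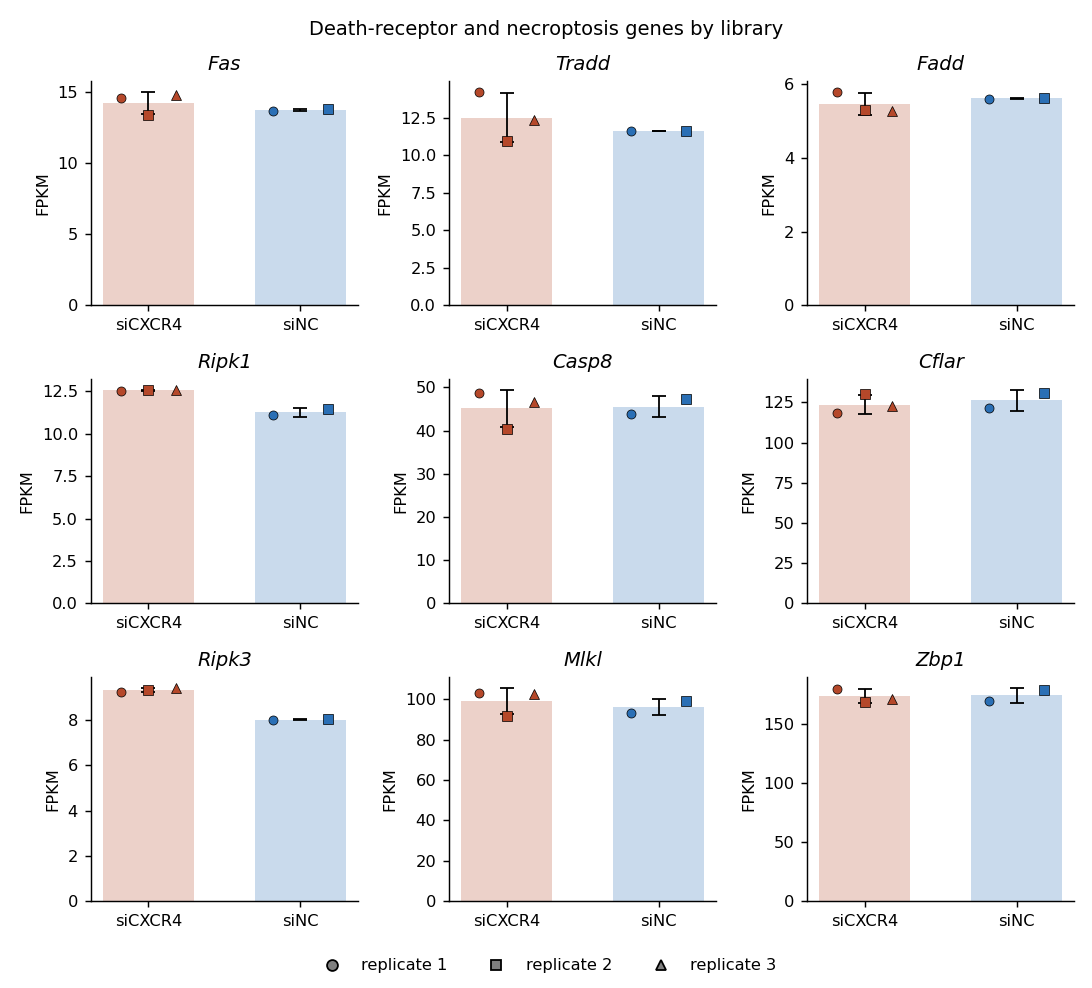
FPKM (y axis, from 0) of the 9 genes in siCXCR4 (left, n = 3) and siNC (right, n = 2) libraries. Points are libraries, shaped by replicate number, and bars and whiskers are the mean and SD. For Ripk1 and Ripk3 every siCXCR4 point lies above every siNC point. In the other 7 panels the groups overlap.

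Between the groups, the clearest separation lay in the kinases RIPK1 and RIPK3, whose transcripts were higher in every siCXCR4 library than in any siNC library, by 1.11-fold and 1.16-fold. The receptor Fas, the adaptors Tradd and Fadd, the caspase-8 pair Casp8 and Cflar, the effector Mlkl and the sensor Zbp1 overlapped between the groups. None of the 9 passed the test over all genes (limma on log2(FPKM + 1), Benjamini-Hochberg adjusted p under 0.05), in which 0% of the 9943 tested genes were called. The groups did not overlap, with siCXCR4 higher, in 2 of the 9 (22.2%), against 17.9% of all tested genes. They did not overlap with siCXCR4 lower in 0 of the 9, against 9.92% of all tested genes. With limma p-values left unadjusted, 2 were higher at p under 0.05 and 0 lower, against 5.8% and 3.54% over the whole table. The share that did not overlap is near its background, and the count at an unadjusted p under 0.05 rests on Ripk1 and Ripk3 alone. The median log2 fold change of the 9 was 0.05, and that of all tested genes 0.01.

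**Figure D2:**
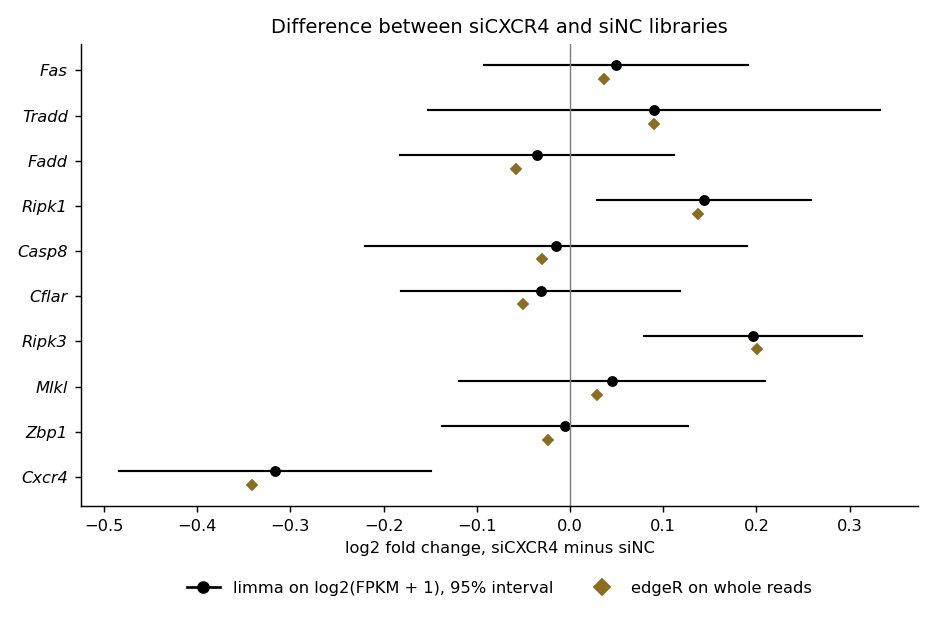
Log2 fold change (x axis, siCXCR4 minus siNC) of the 9 genes and of Cxcr4 (y axis). Black points and lines are limma estimates on log2(FPKM + 1) with 95% intervals, and diamonds are edgeR estimates on whole reads. The intervals of Ripk1 (0.03 to 0.26), Ripk3 (0.08 to 0.31) and Cxcr4 lie to one side of 0, while the other 7 intervals include it.

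Ripk3 encodes the kinase that phosphorylates MLKL. It was at 9.21, 9.32 and 9.41 FPKM in siCXCR4 libraries against 7.99 and 8.01 FPKM in siNC libraries. The lowest siCXCR4 value thus lay above both siNC values. The log2 fold change was 0.20 (SE 0.0488, 95% interval 0.08 to 0.31), with a limma adjusted p of 0.457, and Ripk3 stood at place 119 of 9943 genes by p. The gene drew 362 to 460 reads per library, for which counting alone gives a coefficient of variation near 4.94%. The observed coefficients, 1.04% in siCXCR4 and 0.188% in siNC, were smaller than that, so the spread between libraries understates the error of this gene. On whole reads, where counting error enters the test, edgeR gave 0.20 with an adjusted p of 0.467 and an unadjusted p of 0.0341. DESeq2 on the same reads gave 0.20 with an adjusted p of 0.927 and an unadjusted p of 0.0920, which is above 0.05. Without siCXCR4 replicate 2 the limma value was 0.20 with an adjusted p of 0.250.

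Ripk1 encodes the kinase and scaffold that joins the TNF receptor complex and, through its RHIM, RIPK3. It was at 12.5, 12.6 and 12.6 FPKM in siCXCR4 libraries against 11.1 and 11.5 FPKM in siNC libraries. Again no siCXCR4 value reached down to the siNC values, and the 3 siCXCR4 libraries were nearly equal. Their coefficient of variation, 0.30%, was smaller than the 2.21% that counting alone gives, while that of the siNC libraries was 2.36%. The spread between siCXCR4 libraries thus understates the error of this gene too. The log2 fold change was 0.14 (SE 0.0481, 95% interval 0.03 to 0.26), with adjusted p-values of 0.504 by limma and 0.453 by edgeR, and an unadjusted edgeR p of 0.0307. The unadjusted p was above 0.05 by DESeq2 on the same reads (0.0563, adjusted p 0.820), with the replicate number as a block in limma (0.0878) and without siNC replicate 1 (0.122). Without siCXCR4 replicate 2 the limma value was 0.14 with an adjusted p of 0.343. The edgeR test on whole reads called 0.133% of 12794 genes at an adjusted p under 0.05, none of them among the 9. At an unadjusted p under 0.05 it had 1245 genes, of which 571 (4.46% of all) were higher in siCXCR4, Ripk1 and Ripk3 among them. The larger part of the 1245 was thus lower, while limma had 577 higher and 352 lower. The background for counts of higher and lower genes therefore differed between these tests. Ripk1 rested on 1884 to 2273 reads per library. Of its exon bases, 6.12% also belong to Gm17084, a processed pseudogene on the same strand, which averaged 0 reads. Another 2.89% are shared with Serpinb6a, a serine protease inhibitor gene on the opposite strand. No source used here says whether the counting used strand or how it treated reads in shared bases. Serpinb6a was at 10.2, 9.65 and 9.47 FPKM in siCXCR4 libraries and 10.04 and 9.33 FPKM in siNC libraries, which overlap.

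The FPKM of all genes were scaled to totals that include reads outside the listed genes, 0.00033% to 1.37% of the total in siCXCR4 and 2.15% and 2.80% in siNC libraries. With reads in genes as the denominator the log2 fold changes became 0.17 for Ripk3 and 0.12 for Ripk1, and none of the 9 changed sign. The median of all tested genes went from 0.015 to -0.0083, so whether most genes lay higher or lower depended on the total used. Ratios between 2 genes of a library do not depend on this total. The FPKM ratio of Ripk1 to Ripk3 was 1.36, 1.35 and 1.33 in siCXCR4 libraries against 1.39 and 1.43 in siNC libraries. The ratio of Mlkl to Ripk3 was 11.2, 9.84 and 10.9 in siCXCR4 libraries against 11.7 and 12.3 in siNC libraries, and that of Zbp1 to Ripk3 was 19.6, 18.2 and 18.2 in siCXCR4 libraries against 21.2 and 22.4 in siNC libraries. Relative to the effector and the sensor, Ripk3 was therefore higher in each siCXCR4 library than in either siNC library, as a description with no test. Each ratio has Ripk3 as its denominator and carries the counting error of that gene, near 4.94% per library.

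The sequence upstream of the start of the 2 kinase genes is shown because their transcripts lay higher together, and that of Fas because it held a match to a searched motif. The sequences are RefSeq's, from GRCm38.p6, printed 5′ to 3′ on the strand of the gene up to the base before the annotated start, without bases that lie in annotated exons. Ripk3 lies on the minus strand of chromosome 14 (chr14:55784995-55788865) and its stretch is chr14:55788866-55789107. Ripk1 lies on the plus strand of chromosome 13 (chr13:34002363-34037147) and its stretch is chr13:34002113-34002362. Fas lies on the plus strand of chromosome 19 and its stretch is chr19:34290409-34290658. Capitals mark the match.
Ripk3: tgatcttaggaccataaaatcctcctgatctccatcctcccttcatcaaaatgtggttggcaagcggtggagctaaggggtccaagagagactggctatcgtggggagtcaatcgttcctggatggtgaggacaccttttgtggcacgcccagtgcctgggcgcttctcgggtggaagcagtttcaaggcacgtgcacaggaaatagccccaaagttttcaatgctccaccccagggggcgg
Ripk1: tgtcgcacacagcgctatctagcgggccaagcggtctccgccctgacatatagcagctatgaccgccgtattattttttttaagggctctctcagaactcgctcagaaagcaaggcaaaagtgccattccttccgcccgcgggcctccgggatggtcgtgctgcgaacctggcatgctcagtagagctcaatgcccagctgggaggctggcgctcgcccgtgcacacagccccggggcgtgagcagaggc
Fas: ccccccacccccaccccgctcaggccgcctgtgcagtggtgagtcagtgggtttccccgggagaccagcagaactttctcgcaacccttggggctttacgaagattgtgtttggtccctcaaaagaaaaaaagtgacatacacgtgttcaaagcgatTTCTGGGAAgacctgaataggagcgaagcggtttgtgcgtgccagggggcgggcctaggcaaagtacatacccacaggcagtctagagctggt

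Windows of 250 bases before the start were searched on both strands for 3 motifs of factors that LPS and interferon activate. These were the core of the interferon-stimulated response element, GAAANNGAAA, the STAT site GAS, TTCNNNGAA, and a simplified NF-kB site, GGGANNNNCC. They were found in 2.98%, 7.02% and 17.6% of the 32851 windows of all genes in the table. The table held 8 windows for 7 of the 9 genes, Casp8, Cflar, Fadd, Fas, Mlkl, Ripk1 and Ripk3. The GAS letters were found as TTCTGGGAA, 93 bases before the Fas start, and as TTCCCGGAA, 108 and 11 bases before a second, downstream start of Ripk1. That second window is not printed, since 171 of its bases lie in annotated exons. The printed Ripk3 and Ripk1 stretches held none of the 3 letter patterns, nor did the windows of Casp8, Cflar, Fadd and Mlkl. The printed Ripk1 window and the Fadd window are rich in CpG dinucleotides, with 19 each, and the second Ripk1 window held 32. The Fas window held 11, that of Ripk3 8, that of Cflar 7, and those of Casp8 and Mlkl 5 each. The median over all windows was 6. A match here describes letters and not a bound site.

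At the receptor and adaptor end, Fas, the receptor for FAS ligand, was at 14.6, 13.4 and 14.8 FPKM in siCXCR4 libraries against 13.7 and 13.8 FPKM in siNC libraries. siCXCR4 replicate 2 lay below both siNC libraries and the other siCXCR4 libraries above them. The log2 fold change was 0.05 (95% interval -0.09 to 0.19), and with 1 library left out it ran from 0.023 (without siCXCR4 replicate 3) to 0.092 (without siCXCR4 replicate 2). Tradd, the TNFR1 adaptor, was at 14.2, 10.9 and 12.4 FPKM in siCXCR4 libraries against 11.6 and 11.6 FPKM in siNC libraries. Its siCXCR4 values lay on both sides of the siNC values, and its log2 fold change of 0.09 (95% interval -0.15 to 0.33) became 0.18 without siCXCR4 replicate 2 and 0.00036 without siCXCR4 replicate 1. Fadd, the adaptor shared by both kinds of receptor, was at 5.79, 5.30 and 5.26 FPKM in siCXCR4 libraries against 5.60 and 5.61 FPKM in siNC libraries. Its log2 fold change was -0.036 (95% interval -0.18 to 0.11), on 393 to 492 reads per library, and the groups overlapped. Of its exon bases 6.12% also belong to the antisense gene Faddos, which averaged 3.2 reads. In GRCm38, Fas lies at chr19:34290659-34327770 on the plus strand, and Tradd at chr8:105258286-105264609 and Fadd at chr7:144577318-144582463 on the minus strand.

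Casp8 and Cflar, the initiator caspase and its restrainer, lie close together on chromosome 1 of GRCm38, with Cflar at 58711508 to 58758884 and Casp8 at 58795374 to 58847503, 36489 bases apart on the same strand. Casp8 was at 48.6, 40.4 and 46.6 FPKM in siCXCR4 libraries against 43.9 and 47.3 FPKM in siNC libraries. Cflar was at 118, 130 and 123 FPKM in siCXCR4 libraries against 122 and 131 FPKM in siNC libraries. The library with the lowest Casp8, siCXCR4 replicate 2, had the second-highest Cflar. The Cflar to Casp8 ratio was 2.43, 3.22 and 2.63 in siCXCR4 libraries against 2.78 and 2.77 in siNC libraries. The siCXCR4 ratios fell on both sides of the siNC ratios, with means of 2.76 ± 0.412 in siCXCR4 (SD, n = 3) and 2.78 ± 0.00412 in siNC (SD, n = 2). The log2 fold changes were -0.015 for Casp8 (95% interval -0.22 to 0.19) and -0.032 for Cflar (95% interval -0.18 to 0.12).

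Mlkl, the effector of necroptosis, was at 103, 91.7 and 103 FPKM in siCXCR4 libraries against 93.2 and 98.9 FPKM in siNC libraries. As for Fas, siCXCR4 replicate 2 lay below both siNC libraries and the other siCXCR4 libraries above them. Its log2 fold change was 0.05 (95% interval -0.12 to 0.21). Zbp1, the Z-nucleic-acid sensor and an interferon-induced gene, was at 180, 169 and 172 FPKM in siCXCR4 libraries against 170 and 179 FPKM in siNC libraries. Each group thus held a library near 170 and one near 180 FPKM. Zbp1 had the narrowest range over the 5 libraries of the 9 genes, 0.09 on the log2 scale, which 7.08% of tested genes undercut. Its log2 fold change of -0.0055 had a 95% interval of -0.14 to 0.13, which as a ratio of siCXCR4 to siNC runs from 0.909 to 1.09. Both genes lie on the minus strand, Mlkl at chr8:111311797-111338177 and Zbp1 at chr2:173206612-173218923 in GRCm38. The limma adjusted p-values of the 7 overlapping genes ran from 0.790 to 0.984.

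**Figure D3:**
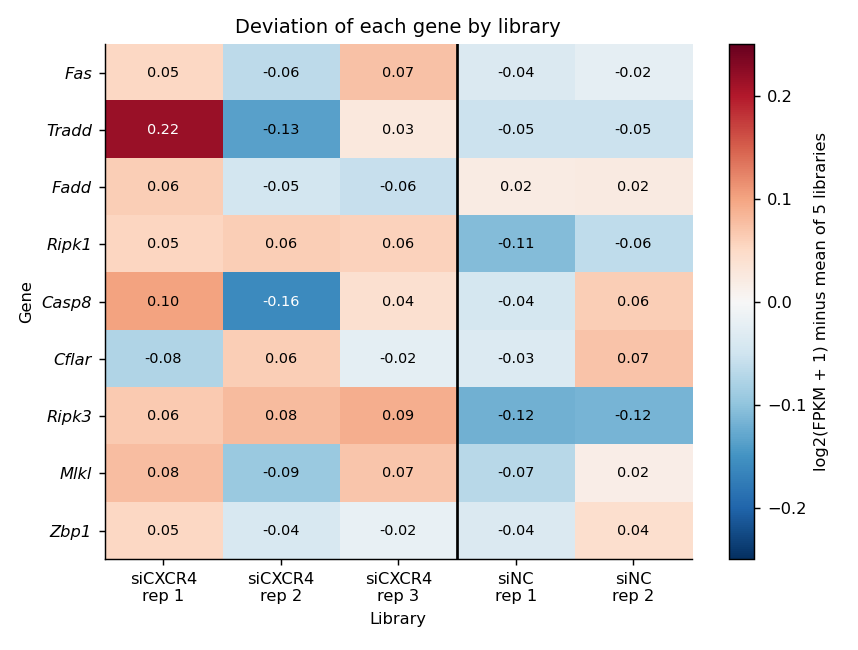
Deviation of log2(FPKM + 1) from the mean of the 5 libraries (colour and printed value) for the 9 genes (rows) in siCXCR4 and siNC libraries (columns). Ripk1 and Ripk3 are positive in the 3 siCXCR4 columns and negative in both siNC columns, while 5 genes have their lowest value in siCXCR4 replicate 2.

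siCXCR4 replicate 1 had the highest value of 5 of the 9 genes (Mlkl, Zbp1, Casp8, Fadd and Tradd), and the highest of 22.9% of all tested genes. siCXCR4 replicate 2, the library that stood apart from its label over all genes, had the lowest value of 5 (Mlkl, Zbp1, Casp8, Fas and Tradd), and the lowest of 15.5% of all tested genes. These counts are descriptions of 9 chosen genes, with no test. Tradd ranged most, over 0.35 on the log2 scale, against a median range of 0.20 over all tested genes. Ripk1 and Ripk3 were not among these genes. In siCXCR4 replicate 2 they deviated by 0.06 and 0.08 from their mean over libraries, much as in the other siCXCR4 libraries.

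Genes that act with these 9 were read from 5 lists of 82 genes in all, of which 74 passed the filter. None was called by limma after adjustment. Before adjustment, 8 (10.8% of the 74) were higher in siCXCR4 at p under 0.05 and 0 lower, against the 5.8% and 3.54% of all tested genes. The groups did not overlap with siCXCR4 higher in 19 (25.7%) and with siCXCR4 lower in 4 (5.41%), against 17.9% and 9.92%. The medians of the 5 lists ran from 0.03 to 0.06 on the log2 scale. These lists were chosen with earlier results of the same libraries known, so the counts are descriptions.

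**Figure D4:**
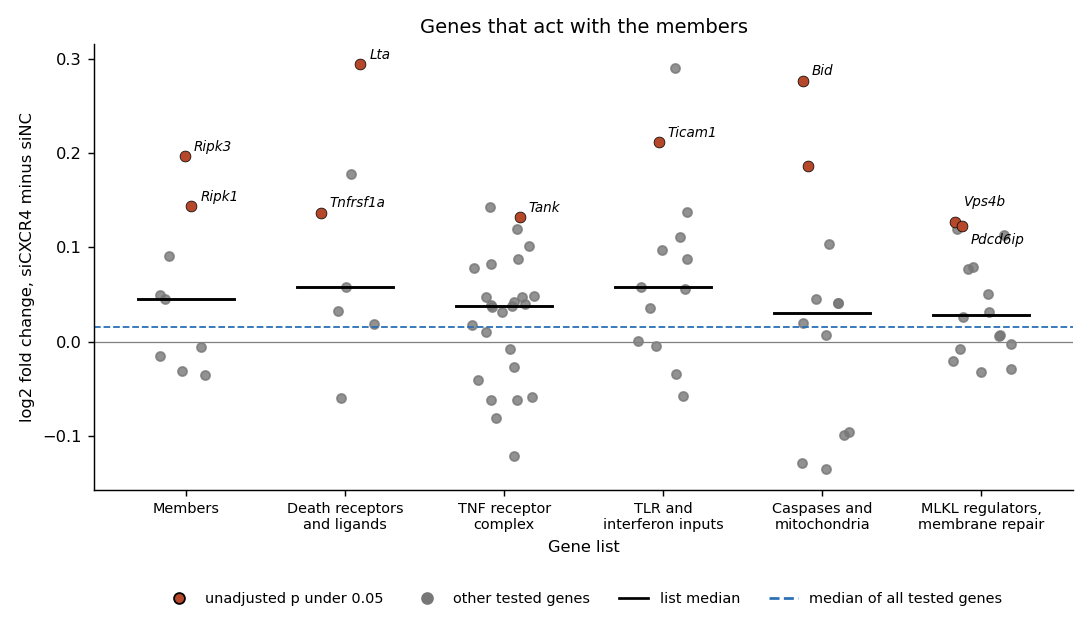
Log2 fold change (y axis, siCXCR4 minus siNC, limma on log2(FPKM + 1)) of the tested genes of each list (x axis). Red points have an unadjusted p under 0.05, those described in the text with their names, black bars are list medians and the dashed line is the median of all tested genes, 0.01. The red points all lie above 0, and none passed the adjusted threshold.

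Among the receptors and ligands, 2 of 7 tested genes (28.6%) were higher at an unadjusted limma p under 0.05 and 0 lower. Over all tested genes, 5.8% were higher and 3.54% lower. Tnfrsf1a, which encodes TNFR1, was at 72.6, 68.8 and 75.0 FPKM in siCXCR4 libraries against 66.3 and 64.7 FPKM in siNC libraries, so the groups did not overlap (log2 fold change 0.14, SE 0.0547, limma adjusted p 0.526). Lta, the ligand lymphotoxin alpha, averaged 2.63 ± 0.463 FPKM in siCXCR4 (SD, n = 3) and 1.95 ± 0.212 FPKM in siNC (SD, n = 2), on only 49 to 84 reads per library. Tnfrsf1b, the second TNF receptor and the most abundant gene of the list, averaged 1063 ± 28.0 FPKM in siCXCR4 and 1039 ± 13.2 FPKM in siNC, with overlap. Tnfsf10 (TRAIL), at 18.4 ± 2.86 and 16.2 ± 3.33 FPKM in siCXCR4 and siNC, and the death receptor Tnfrsf21, at 9.38 ± 0.808 FPKM in siCXCR4 and 8.95 ± 0.00215 FPKM in siNC, overlapped too. Fasl and Tnf were named after their values were seen. Fasl, the ligand of FAS, had 0 or 1 read in every library, while Tnf averaged 667 ± 72.8 FPKM in siCXCR4 and 693 ± 47.6 FPKM in siNC.

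The TNF receptor complex adds ubiquitin chains to RIPK1 and recruits kinases that restrain it. Here 1 of 26 tested genes (3.85%) was higher at an unadjusted limma p under 0.05 and 0 lower. That is below the 5.8% higher and 3.54% lower of all tested genes. The higher gene was Tank, an adaptor of the kinases TBK1 and IKKε. It was at 53.6, 53.1 and 52.3 FPKM in siCXCR4 libraries against 48.3 and 48.3 FPKM in siNC libraries (log2 fold change 0.13, SE 0.0451, limma adjusted p 0.504). Tab2, which ties the kinase TAK1 to ubiquitin chains, averaged 30.1 ± 0.897 FPKM in siCXCR4 and 27.7 ± 0.911 FPKM in siNC without overlap. Ikbkg (NEMO), the regulatory subunit of the IkB kinase, lay the other way without overlap, at 9.99 ± 0.313 FPKM in siCXCR4 and 10.96 ± 0.440 FPKM in siNC. Traf2, at 20.9 ± 1.41 and 18.8 ± 0.794 FPKM in siCXCR4 and siNC, and the RIPK1 kinase Mapkapk2 (MK2), at 352 ± 7.51 FPKM in siCXCR4 and 332 ± 24.0 FPKM in siNC, overlapped.

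Among Toll-like receptor and interferon inputs, 1 of 13 tested genes (7.69%) was higher at an unadjusted limma p under 0.05 and 0 lower. The shares over all tested genes were 5.8% and 3.54%. Ticam1, which encodes TRIF, was at 28.6, 29.5 and 28.1 FPKM in siCXCR4 libraries against 24.1 and 25.3 FPKM in siNC libraries. The siCXCR4 values lay close together and above both siNC values (log2 fold change 0.21, SE 0.0506, limma adjusted p 0.457, edgeR adjusted p 0.272). Tlr3, whose product signals through TRIF, averaged 17.2 ± 2.48 FPKM in siCXCR4 and 13.8 ± 1.57 FPKM in siNC, and Myd88, the adaptor of the other TLR4 arm, 61.2 ± 1.52 FPKM in siCXCR4 and 57.5 ± 0.271 FPKM in siNC. Tlr3 overlapped and Myd88 did not. Samhd1, a nucleotide hydrolase, averaged 181 ± 11.3 FPKM in siCXCR4 and 165 ± 10.1 FPKM in siNC, and the transcription factor Irf1 averaged 213 ± 15.2 FPKM in siCXCR4 and 218 ± 19.9 FPKM in siNC, both with overlap.

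Downstream of caspase-8, 2 of 12 tested genes (16.7%) were higher at an unadjusted limma p under 0.05 and 0 lower. The shares over all tested genes were 5.8% and 3.54%. Bid, which caspase-8 cleaves to reach mitochondria, was at 16.1, 15.5 and 17.4 FPKM in siCXCR4 libraries against 12.6 and 14.04 FPKM in siNC libraries. The groups did not overlap, and the log2 fold change was 0.28 (SE 0.0713), with adjusted p-values of 0.486 by limma and 0.178 by edgeR. Casp9, the initiator of the mitochondrial arm, averaged 11.2 ± 0.444 FPKM in siCXCR4 and 10.3 ± 0.217 FPKM in siNC without overlap. Cytochrome c (Cycs), at 29.4 ± 2.30 and 32.3 ± 1.09 FPKM in siCXCR4 and siNC, overlapped.

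Among regulators of MLKL and of membrane repair, 2 of 16 tested genes (12.5%) were higher at an unadjusted limma p under 0.05 and 0 lower. The shares over all tested genes were 5.8% and 3.54%. The 2 higher genes belong to the ESCRT machinery that pinches off damaged membrane. Pdcd6ip (ALIX) was at 53.2, 51.4 and 53.0 FPKM in siCXCR4 libraries against 48.4 and 47.9 FPKM in siNC libraries (log2 fold change 0.12, SE 0.0463, limma adjusted p 0.512). The ATPase Vps4b was at 19.2, 18.6 and 18.8 FPKM in siCXCR4 libraries against 17.8 and 16.6 FPKM in siNC libraries (log2 fold change 0.13, SE 0.0523, limma adjusted p 0.532). Flot2, a flotillin, averaged 18.8 ± 0.903 FPKM in siCXCR4 and 17.3 ± 0.535 FPKM in siNC without overlap. The metabolic enzyme glutamate dehydrogenase (Glud1), at 47.7 ± 0.502 and 45.2 ± 2.84 FPKM in siCXCR4 and siNC, and the ESCRT-III subunit Chmp4b, at 338 ± 19.4 FPKM in siCXCR4 and 320 ± 1.33 FPKM, overlapped.

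For Ripk3, the member of lowest p, the genes with the most similar pattern over the 5 libraries were sought among 5842 others with a mean of at least 5 FPKM. By the root mean square difference of log2(FPKM + 1) centred on each gene's mean, these were Lrrc8d (0.00770), Lhfpl2 (0.0103) and Pole3 (0.0129). Lrrc8d, a subunit of volume-regulated anion channels, was at 7.85, 7.91 and 7.96 FPKM in siCXCR4 libraries against 6.86 and 6.79 FPKM in siNC libraries. Lhfpl2 averaged 65.5 ± 0.755 FPKM in siCXCR4 and 57.6 ± 0.181 FPKM in siNC, and Pole3, a DNA polymerase epsilon subunit, 10.9 ± 0.0663 FPKM in siCXCR4 and 9.37 ± 0.0801 FPKM in siNC. With only 5 libraries the choice is unstable: leaving out siCXCR4 replicate 1 or 2 or either siNC library kept 1 of the 3 genes. Picked for the Ripk3 pattern, these genes separate the groups by that choice. The coefficients of variation of Lrrc8d (0.72% in siCXCR4, 0.82% in siNC) and Pole3 (0.61% and 0.86%) were below counting error, 2.28% and 4.83%.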

How the data were processed

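The values in 5 tables were deposited by the authors as normalized expression, read here as FPKM (RPKM cannot be told apart), since the headers give no unit. Multiplied by gene length, 100% of a library's values were whole multiples of what 1 read is worth there (tolerance 0.05 read). The siNC replicate 3 table instead held whole read counts, as deposited. The submitters' processing notes name mm9, but 98.3% of shared genes had the positions of GRCm38 (GENCODE M21), used here. No source used here gives the aligner, counter or strand setting.

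Of several entries with 1 symbol, that with the highest mean was kept. siCXCR4 was compared with siNC by limma 3.58.1 (R 4.3.3, trend and robust, two-sided) on log2(FPKM + 1), so fold changes of low genes are understated, over the 9943 genes averaging 1 FPKM or more. The fit used 3 siCXCR4 and 2 siNC libraries, as planned. A two-sided exact permutation test of Cxcr4 gave p = 0.1, the smallest possible. edgeR 4.0.16 (TMM, quasi-likelihood) and DESeq2 1.42.0 were run on whole reads worked back from FPKM. The limma and edgeR fits were tested on simulated data.

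Named were the 9 genes, Cxcr4, up to 4 genes of lowest p and the most abundant gene of each list, and the 3 genes most like the member of lowest p. The members, lists and tests were chosen with earlier results of these data known. Without molecular identifiers, read numbers cover counting error only. A few genes of these lists are not reported here. Of the alternatives given below, none was added later.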

Additional observations from a re-analysis of the deposited data

How the results depend on the processing

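No member passed an adjusted p under 0.05 in any of its 18 alternatives. Over them, the limma, edgeR and DESeq2 values ran from 0.17 to 0.22 for Ripk3 (adjusted p 0.0957 to 0.927) and from 0.12 to 0.17 for Ripk1 (adjusted p 0.125 to 0.924). Both lowest adjusted p-values came from limma with the copy counted as siNC replicate 3, which treats 1 library as 2. Among the other alternatives the lowest were 0.250 for Ripk3 and 0.343 for Ripk1, both by limma without siCXCR4 replicate 2. Mlkl, Fas, Tradd and Fadd also kept their sign in all of theirs, but not their size: with 1 library left out Mlkl ran from 0.0023 (without siNC replicate 1) to 0.10 (without siCXCR4 replicate 2), Fas from 0.023 to 0.092, Tradd from 0.00036 to 0.18 and Fadd from -0.073 (without siCXCR4 replicate 1) to -0.015 (without siCXCR4 replicate 3). The count of called genes, 0 by limma (929 at an unadjusted p under 0.05), was 17 with edgeR on whole reads, 34 with DESeq2, 6 with the copy counted as siNC replicate 3 and 0 to 2 with 1 library left out (2 without siCXCR4 replicate 2). It was 0 in the other 16 of its 20 alternatives. With 1 library left out, Zbp1 ran from -0.044 to 0.033, Casp8 from -0.069 to 0.062, Cflar from -0.084 to 0.021, Tnfsf10 from -0.021 to 0.38, Irf1 from -0.13 to 0.058, Tnf from -0.14 to 0.010 and Serpinb6a from -0.037 to 0.059, so their signs turned. Serpinb6a was also at -0.0063 by edgeR, -0.0038 by DESeq2 and -0.014 with reads in genes as the denominator. DESeq2 was the single alternative that called Cxcr4 (adjusted p 0.0496). Same-numbered libraries did not deviate together (correlations -0.04 and -0.11). With only 2 siNC libraries, whose deviations from their mean mirror each other, these correlations cannot show whether same-numbered samples share a mouse, culture or batch. With the replicate block, 0 genes were called, Zbp1 was at 0.0026 and Tnf at 0.0082, and Ripk3 and Ripk1 were at 0.19 and 0.14 (both adjusted p 0.924). The causes were not tested. Of the 9 genes, Ripk3, Fadd, Fas and Tradd had the fewest reads, 362 to 579 per library.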
